A study of Mus musculus with 2 samples.

Results

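Interferon-gamma and the genes of its receptor and signalling pathway were followed as 8 members, Ifng, Ifngr1, Ifngr2, Jak1, Jak2, Irf1, Irf8 and Socs1, chosen by gene symbol among the 32285 genes of the count tables. The cells came from tumours grown in mice from Hepa1-6, a mouse hepatoma cell line. A CD147-LYTACs library came from treated tumour-bearing animals and a control library from tumours without that treatment, with 1 library per group. CD147-LYTACs are lysosome-targeting chimeras, binders that send a surface protein to the lysosome for breakdown, here aimed at CD147 (basigin) by their name. They were given as 4 doses of 40 mg/kg, spaced 3 days apart, and the protocol names both the intraperitoneal and the intravenous route without saying which was used. Tumours were taken on day 12, sorted into CD45- and CD45+ cells and remixed at 1 to 3, so the share of immune cells was set by the mixing. The labels give neither what the control animals received nor how many tumours entered a library. With 1 library per group there is no test between the groups. Each interval below covers counting error only, not the spread between cells or between animals.

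Interferon-gamma is a cytokine made mainly by activated T cells and natural killer (NK) cells. It binds a receptor of 2 chains, IFNGR1 and IFNGR2, whose kinases JAK1 and JAK2 start a signal to the nucleus. That signal acts at gamma-activated sites in DNA and induces genes such as Irf1, whose products raise antigen presentation, chemokines and GTPases that defend the cell. SOCS1, itself induced, inhibits the kinases and closes the loop. In tumours the pathway is known both for exposing cancer cells to T cells and for inducing checkpoint ligands.

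On GRCm38, Ifng lies at chr10:118441046-118445892 on the plus strand and Ifngr1, the ligand-binding chain, at chr10:19591949-19610229 on the plus strand. Ifngr2, the chain that signal transduction depends on, lies at chr16:91547072-91565623 on the plus strand. The kinase genes are Jak1 at chr4:101152367-101265282 on the minus strand and Jak2 at chr19:29251828-29313080 on the plus strand. Of the transcription factor genes, Irf1 lies at chr11:53770014-53778374 and Irf8 at chr8:120736358-120756694, both on the plus strand. Socs1 lies at chr16:10782240-10785536 on the minus strand. All 8 are protein-coding and had 1 row each in the count tables. In the annotation Ifng overlaps Gm49751 and Irf8 overlaps Gm20388 on the same strand, and neither of these was a row of the tables.

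The CD147-LYTACs library held 9219 barcodes and 149812326 UMIs (unique molecular identifiers, 1 per captured transcript), and the control library 8150 barcodes and 143495332 UMIs. After filters on depth, genes and mitochondrial UMIs and removal of the highest doublet scores, 7641 and 6689 cells remained. Of these, 19 barcode sequences occurred in both libraries. Cells were classed by marker genes that included no member. CD8 T cells numbered 1908 in the CD147-LYTACs library and 2568 in the control library, CD4 T cells 171 and 272, regulatory T cells (Treg) 64 and 88, other T cells 360 and 495, and NK cells 105 and 93. Neutrophils numbered 1170 and 137, monocytes and macrophages 479 and 167, conventional dendritic cells (cDC) 43 and 68, and hepatoma cells 2030 and 1839. Levels of the defining markers follow from the gates themselves and so do not test the class names. NK cells carried Ncr1 at 92.7 CPM (the usual depth-scaled count, here over the summed UMIs of a class) and 81.7 CPM. Cd3e was at 2.11 and 5.98 CPM there, against 321 and 319 CPM in CD8 T cells. The granzyme gene Gzma was at 2845 and 3477 CPM in NK cells, against 179 and 134 CPM in CD8 T cells. Eomes was at 329 and 323 CPM in NK cells, against 34.7 and 30.4 CPM in CD8 T cells. Barcodes with both T cell and monocyte or macrophage markers, 270 in the CD147-LYTACs library and 48 in the control library, were left out of every class.

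Ifng was a T and NK cell transcript. Of the Ifng UMIs in classed cells, T and NK cells held 98.0% in the CD147-LYTACs library (exact binomial interval 97.6 to 98.3%, of 5667 UMIs) and 98.6% in the control (98.3 to 98.9%, of 5828 UMIs). CD8 T cells alone held 78.3% and 76.6%. Among all cells kept, which include the unclassed and mixed barcodes, the T and NK share was 88.7% and 93.8%, and the barcodes with T cell and macrophage markers held 5.70% and 1.66%.

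**Figure D1:**
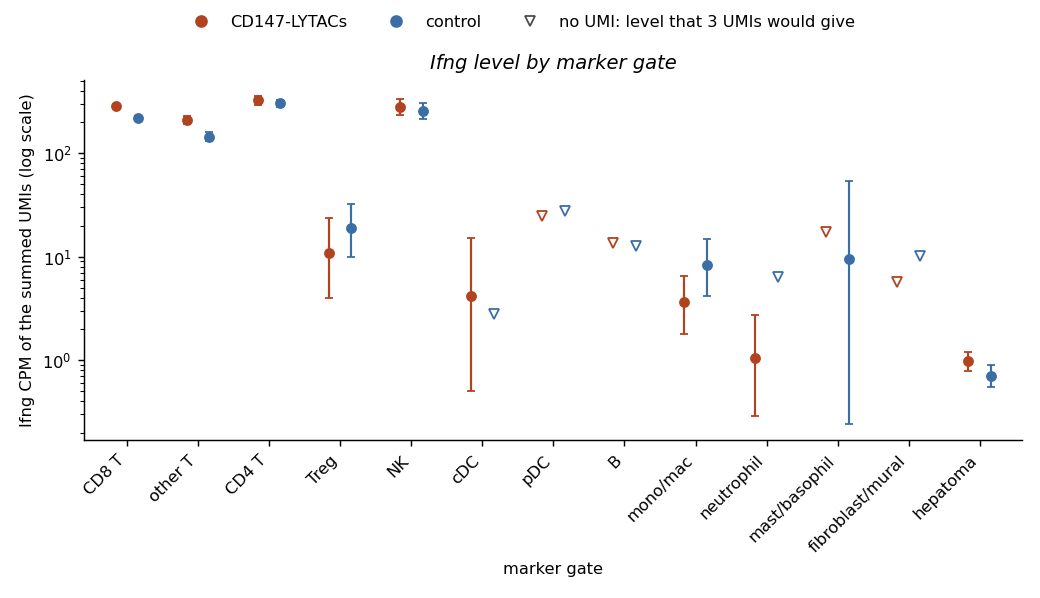
Ifng CPM of the summed UMIs (log axis) in 13 marker gates, CD147-LYTACs left of control in each, with exact Poisson intervals as bars and open triangles at the level that 3 UMIs would give where no UMI was counted. CD8 T, other T, CD4 T and NK cells lie between 145 and 324 CPM in both libraries and all other gates lie below 30 CPM.

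Per cell class, CD8 T cells had 285 CPM of Ifng (exact Poisson interval 277 to 294) in the CD147-LYTACs library and 221 CPM (215 to 228) in the control library, with a log2 ratio of 0.37 (0.31 to 0.43). NK cells had 282 CPM (237 to 334) against 255 CPM (213 to 303), a log2 ratio of 0.15 (-0.21 to 0.51) whose interval includes no difference. CD8 T cells were thus higher in the CD147-LYTACs library beyond counting error, while NK cells were not distinguishable at 134 and 128 UMIs. Other T cells, those with CD3 genes but without a clear CD4 or CD8 call, had 210 CPM against 145 CPM (0.54, 0.35 to 0.72). By the mean over cells in place of the sum, that log2 ratio was 0.25, and with cells classed by clusters it was -1.34, where 3.61% and 3.84% of these gated cells fell in clusters of that name.

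CD4 T cells had 324 CPM against 305 CPM (0.09, -0.09 to 0.26), and this value turned on a single cell. That CD147-LYTACs cell held 165 of the 449 Ifng UMIs of its class, and the next held 24. Without the highest cell of each library, CD4 T cells stood at 207 CPM against 292 CPM, a log2 ratio of -0.50 (-0.70 to -0.29). With cells classed by clusters the ratio was 0.42 (0.26 to 0.57), so the sign for CD4 T cells depended on single cells and on the classing. Over all T and NK cells the ratio was 0.34 (0.28 to 0.39) with those cells and 0.32 without the highest cell of each library.

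Treg had Ifng at 10.9 CPM (6 UMIs) and 18.8 CPM (13 UMIs), far under the other T cells. Monocytes and macrophages had 3.61 and 8.30 CPM, from 11 UMIs in each library. Hepatoma cells had 0.975 and 0.707 CPM, 0.342% and 0.320% of the CD8 T cell level, where the T cell gene Cd3d stood at 0.235% and 0.256% of its CD8 T cell level. Neutrophils had 4 Ifng UMIs in the CD147-LYTACs library and none in the control library, which allows up to 6.36 CPM there. The order of classes was CD4 T, CD8 T and NK at the top in the CD147-LYTACs library, with overlapping intervals between CD8 T and NK cells, and CD4 T, NK and CD8 T in the control library. Without the cell with the most Ifng UMIs of each class, CD4 T cells of the CD147-LYTACs library, at 207 CPM, lay below CD8 T cells at 283 CPM and NK cells at 262 CPM.

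Ifng was unevenly spread over CD8 T cells. With each cell thinned to 1000 UMIs, 20.2% of 1906 CD8 T cells held an Ifng UMI in the CD147-LYTACs library (exact binomial interval 18.4 to 22.1%), against 18.9% of 2566 in the control (17.4 to 20.5%). At 2000 UMIs these shares were 34.4% (32.3 to 36.6%) and 27.1% (25.4 to 28.9%). Unthinned, with median depths of 6511.5 and 6519 UMIs, they were 60.95% and 55.1%. Among hepatoma cells, which should lack the transcript, 0 of 2025 thinned cells held an Ifng UMI in the CD147-LYTACs library, which allows up to 0.148%, and 0.163% in the control library, at median depths of 44351.5 and 47806 UMIs. At 2000 UMIs the top 10% of CD8 T cells held 53.1% of the Ifng UMIs in the CD147-LYTACs library and 60.9% in the control library. The same share was 49.5% and 57.3% for Irf8 and 32.4% and 32.9% for Jak1. More of a gene's UMIs gather in few cells when it is sparse.

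CD8 T cell subsets were set by whether a cell held a UMI of Tcf7 (a factor of naive, memory and progenitor T cells), Pdcd1 (the checkpoint receptor PD-1) and Havcr2 (the checkpoint receptor TIM-3). Ifng was lowest in Tcf7+ Pdcd1- cells, at 126 CPM in the CD147-LYTACs library and 99.96 CPM in the control library. Tcf7+ Pdcd1+ cells had 177 and 119 CPM, and Tcf7- Pdcd1+ Havcr2- cells had 224 and 195 CPM. Tcf7- Pdcd1+ Havcr2+ cells had 319 and 250 CPM, and Tcf7- Pdcd1- cells had 345 and 270 CPM. The order of the 5 subsets was the same in both libraries, and the log2 ratio was positive in each. It ran from 0.20 (0.01 to 0.38) in Tcf7- Pdcd1+ Havcr2- cells to 0.58 (0.34 to 0.82) in Tcf7+ Pdcd1+ cells. In Tcf7+ Pdcd1- cells the interval included no difference (0.34, -0.06 to 0.73). The Tcf7- Pdcd1+ Havcr2+ cells made up 49.8% and 46.5% of CD8 T cells and held 64.7% and 61.6% of their Ifng UMIs. Median depth differed between subsets, from 4978 UMIs in Tcf7+ Pdcd1- cells to 9813 in Tcf7+ Pdcd1+ cells of the CD147-LYTACs library, and a deeper cell more readily shows a marker. Cells with a Gzmb UMI, the granzyme B gene of cytotoxic cells, had more Ifng than cells without, at 315 against 206 CPM in the CD147-LYTACs library and 253 against 161 CPM in the control library. Cells with a UMI of the proliferation genes Mki67 or Top2a had slightly less Ifng than the rest, at 265 against 309 CPM in the CD147-LYTACs library and 203 against 240 CPM in the control library.

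**Figure D2:**
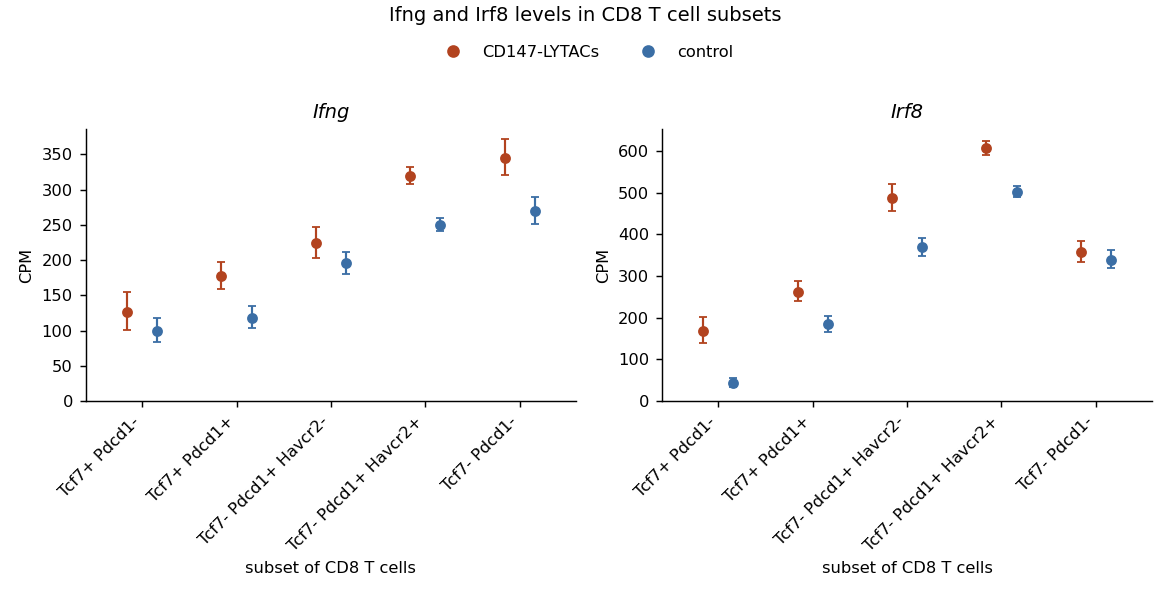
Ifng and Irf8 CPM of the summed UMIs in 5 subsets of CD8 T cells, CD147-LYTACs left of control in each, with exact Poisson intervals as bars. Ifng runs from 126 and 99.96 CPM in Tcf7+ Pdcd1- cells to 345 and 270 CPM in Tcf7- Pdcd1- cells, and Irf8 is highest in Tcf7- Pdcd1+ Havcr2+ cells.

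T and NK cells with an Ifng UMI after thinning to 1000 UMIs were set against those without, within each library. The genes with the highest pooled ratio were Hspa1b, a stress-induced chaperone, at 206 against 76.9 CPM in the CD147-LYTACs library and 285 against 89.4 CPM in the control library. Ccl3, a chemokine of activated T cells, was at 211 against 80.6 CPM and 106 against 50.4 CPM. The chaperone Hspa1a and the chemokine Ccl4 came next, followed by Mterf3, Mtap, Dusp6, Tax1bp3, Cc2d1a and B930095G15Rik, of which all but Dusp6 had between 100 and 122 UMIs in all. Of the other members, Irf8 was higher in Ifng-positive cells in both libraries, at 589 against 430 CPM (log2 ratio 0.45, 0.26 to 0.64) and 431 against 329 CPM (0.39, 0.19 to 0.59), which ranked it 240 of 6675 genes. Ifngr1, Jak1, Irf1 and Socs1 had intervals that included no difference in both libraries. Jak2 was lower in Ifng-positive cells of the CD147-LYTACs library (-0.36, -0.63 to -0.09). Its interval in the control library included no difference (-0.12, -0.32 to 0.07). These contrasts pool classes that differ in Jak2 and Irf8, and the part of that mixture was not tested. Within CD8 T cells Jak2 had -0.22 (-0.56 to 0.11) and -0.11 (-0.37 to 0.14), both including no difference. Irf8 there had 0.37 (0.14 to 0.59) and 0.30 (0.07 to 0.53). In NK cells the Irf8 intervals, -0.26 to 0.67 and -0.23 to 0.82, included no difference.

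Across 22 sums (11 cell classes in each library, sharing libraries), the genes whose log2 CPM was most like that of Ifng were Ncald (Pearson r 0.955), Apol7e (0.9504), Klrc1 (0.948), Cd96 (0.946) and Ctsw (0.941), followed by Btbd11, Lck, Nmnat2 and Gzmc. Klrc1 and Cd96 encode receptors of T and NK cells, Lck the kinase of T cell receptor signalling, and Gzmc a granzyme. These correlations describe which classes hold the transcripts and carry no test.

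The receptor chains were unequally spread over the cell classes. Ifngr1 was at 773 CPM in CD8 T cells of the CD147-LYTACs library and 840 CPM in the control library, at 590 and 644 CPM in CD4 T cells, 699 and 957 CPM in Treg, and 1028 and 1092 CPM in NK cells. Outside T and NK cells it was far lower, at 95.1 and 101.5 CPM in hepatoma cells, 70.3 and 81.5 CPM in monocytes and macrophages, 48.7 and 50.8 CPM in neutrophils, and 105 and 142 CPM in cDC. Ifngr2 was low in T and NK cells. It stood at 3.28 and 1.44 CPM in CD8 T cells, 5.05 and 4.85 CPM in CD4 T cells, and 9.17 and 8.37 CPM in other T cells. Treg had 25.5 CPM (14 UMIs) and 5.77 CPM (4 UMIs), and NK cells 1 UMI and no UMI. In monocytes and macrophages it was at 140 and 125 CPM, in neutrophils at 88.9 and 106 CPM, in cDC at 92.2 and 142 CPM, and in hepatoma cells at 65.2 and 61.9 CPM.

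**Figure D3:**
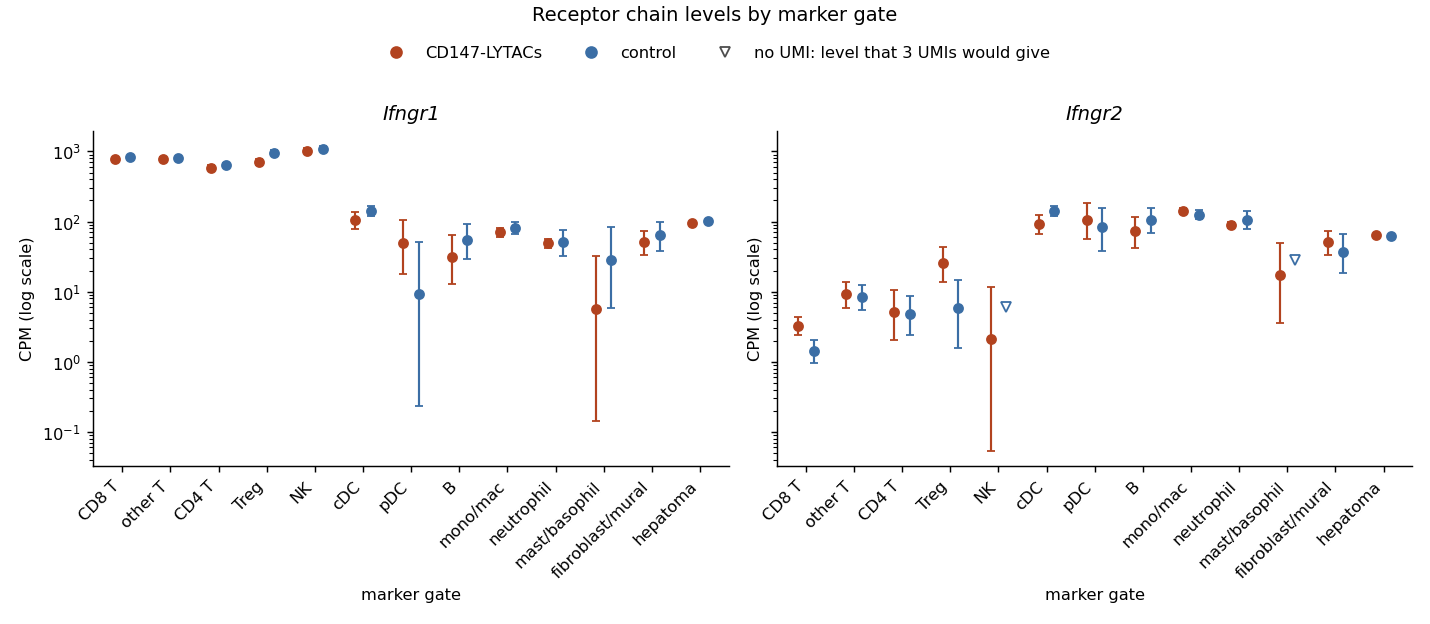
Ifngr1 and Ifngr2 CPM of the summed UMIs (shared log axis) in 13 marker gates, CD147-LYTACs left of control in each, with exact Poisson intervals as bars and open triangles at the level that 3 UMIs would give where no UMI was counted. T and NK cells have the highest Ifngr1, 590 to 1092 CPM, and low Ifngr2, at most 25.5 CPM, while hepatoma cells, neutrophils, monocytes and macrophages, and cDC lie at 61.9 CPM of Ifngr2 or more.

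Capture differs between transcripts, so the ratio of Ifngr1 to Ifngr2 UMIs has meaning only when compared between cell classes. That ratio was 236 (interval 179 to 317) in CD8 T cells of the CD147-LYTACs library and 585 (408 to 874) in the control library. In hepatoma cells it was 1.46 (1.41 to 1.51) and 1.64 (1.59 to 1.69), in neutrophils 0.548 and 0.480, and in monocytes and macrophages 0.504 and 0.651. In cDC it was 1.14 and 1.00. The intervals of CD8 T cells lay wholly above those of these other classes in both libraries. NK cells had a ratio of 488 in the CD147-LYTACs library, from 1 Ifngr2 UMI (87.2 to 19314), and at least 183 in the control library, counting 3 UMIs in place of none.

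Ifngr2 in T and NK cells as a whole was at 4.69 CPM (96 UMIs) in the CD147-LYTACs library and 2.61 CPM (70 UMIs) in the control library, with a log2 ratio of 0.84 (0.38 to 1.31). These levels were 7.19% and 4.22% of that in hepatoma cells, while the hepatoma keratin gene Krt8 stood in T and NK cells at 1.11% and 1.27% of its hepatoma level. The macrophage gene C1qa stood there at 0.340% and 0.122% of its monocyte and macrophage level, higher in the same library as Ifngr2. The part of RNA from other cells in this difference was not tested. Within CD8 T cells, Ifngr2 was highest in Tcf7+ Pdcd1- cells of the CD147-LYTACs library, at 17.0 CPM from 12 UMIs, against 3.67 CPM from 5 UMIs in the control library.

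Between the libraries, Ifngr1 was slightly lower in the CD147-LYTACs library in CD8 T cells, by -0.12 (-0.15 to -0.09) on the log2 scale, and in hepatoma cells (-0.09, -0.13 to -0.05). Treg had the largest Ifngr1 difference of the classes with 50 or more cells in each library, at -0.45 (-0.64 to -0.27). Ifngr2 in hepatoma cells was about level, at 0.07 (0.02 to 0.12).

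Jak1, the kinase bound to IFNGR1 and shared with many cytokine receptors, was highest in NK cells, at 902 CPM in the CD147-LYTACs library and 861 CPM in the control library. T cells lay between 508 and 652 CPM, neutrophils at 517 and 536 CPM, and monocytes and macrophages at 354 and 330 CPM. Hepatoma cells had the lowest level, 77.0 and 80.2 CPM. In CD8 T cells its ratio was -0.11 (-0.15 to -0.07).

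Jak2, the kinase bound to IFNGR2, was highest in cDC, at 1014 and 1024 CPM, and lowest in plasmacytoid dendritic cells (pDC), with 114 and 82.7 CPM from 14 and 9 UMIs. Among T cells the order was Treg or CD4 T at the top and CD8 T at the bottom. Treg had 755 CPM in the CD147-LYTACs library and 898 CPM in the control library, CD4 T cells 675 and 987 CPM, other T cells 436 and 579 CPM, and CD8 T cells 264 and 333 CPM. Each of these 4 T cell classes was lower in the CD147-LYTACs library, with log2 ratios of -0.25 (-0.43 to -0.07), -0.55 (-0.66 to -0.44), -0.41 (-0.52 to -0.30) and -0.34 (-0.39 to -0.28). NK cells had 354 against 383 CPM (-0.11, -0.42 to 0.19), an interval that includes no difference. Within CD8 T cells, the difference was in the Tcf7- subsets, at -0.56 (-0.73 to -0.39), -0.38 (-0.46 to -0.30) and -0.39 (-0.54 to -0.24). The Tcf7+ subsets had -0.15 (-0.36 to 0.06) and -0.02 (-0.16 to 0.12). Whether the subsets differ in this was not tested. Hepatoma cells had 146 against 157 CPM (-0.10, -0.13 to -0.07).

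**Figure D4:**
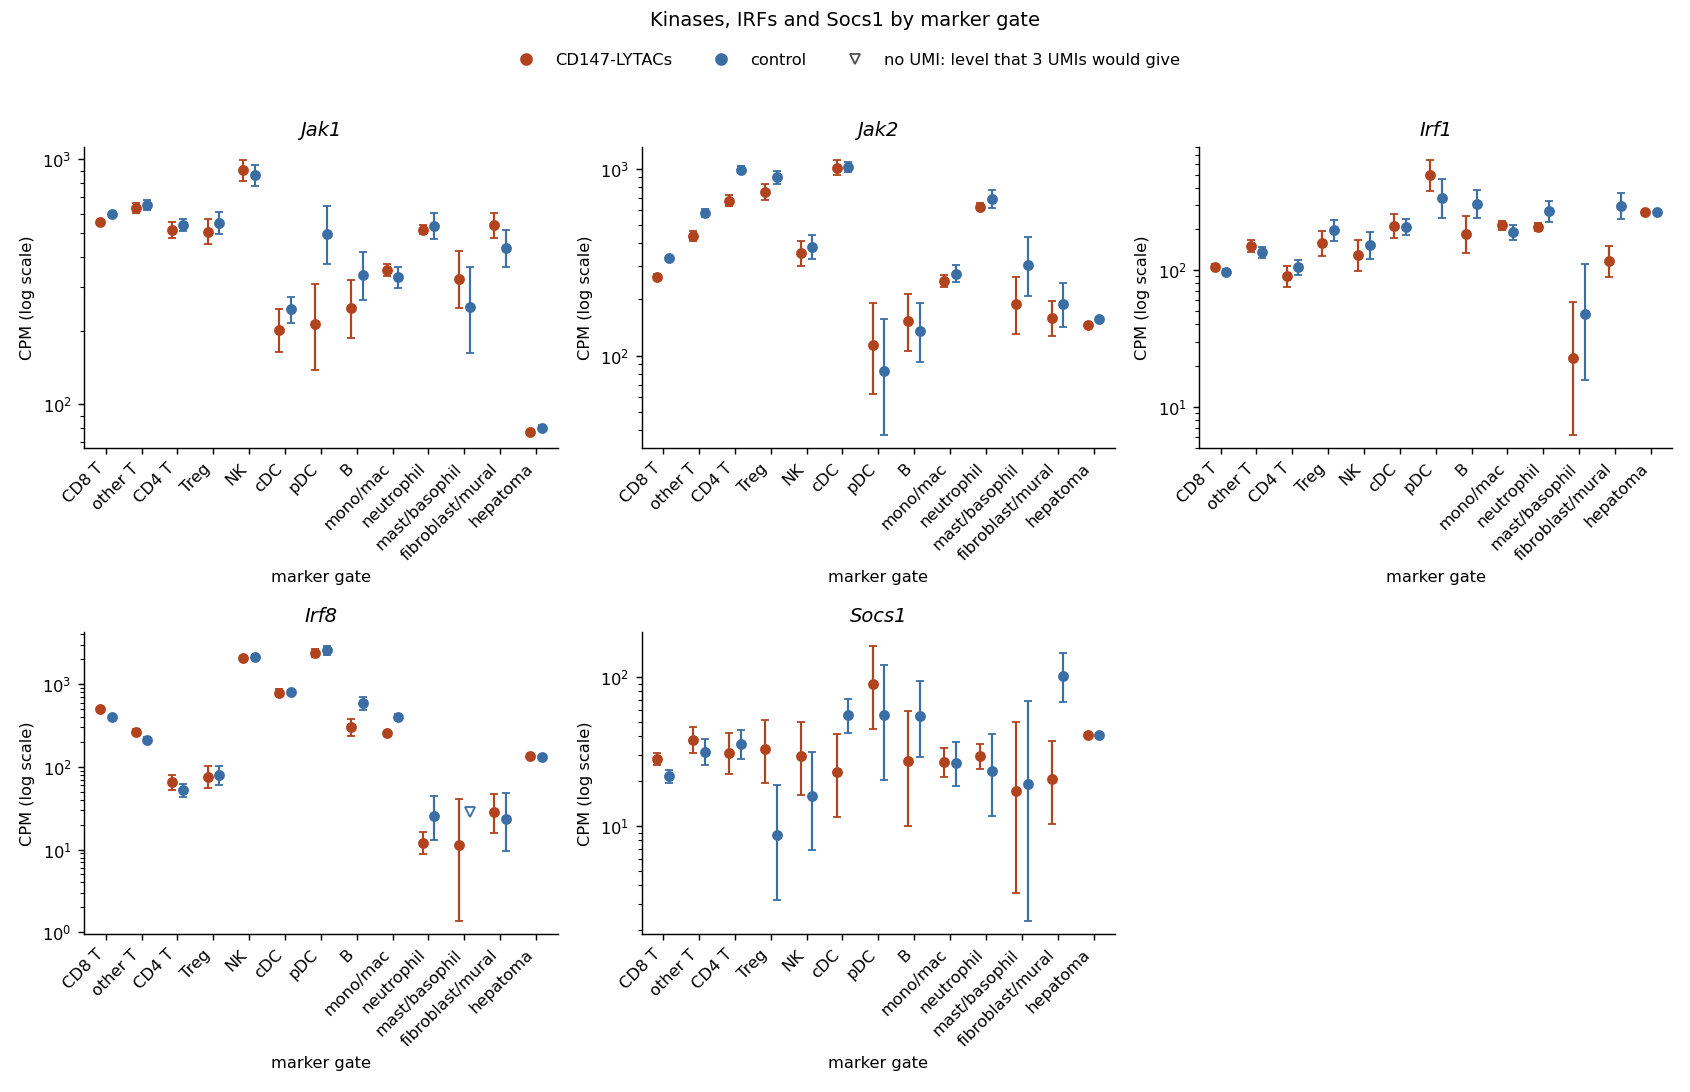
CPM of the summed UMIs (log axes) of Jak1, Jak2, Irf1, Irf8 and Socs1 in 13 marker gates, CD147-LYTACs left of control in each, with exact Poisson intervals as bars and open triangles at the level that 3 UMIs would give where no UMI was counted. Irf8 differs widely between gates, with NK cells and pDC above 2000 CPM and neutrophils at 12.2 and 25.4 CPM.

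Irf1, a transcription factor induced within the first response to interferon-gamma, was highest in pDC, at 498 CPM (61 UMIs) in the CD147-LYTACs library and 340 CPM (37 UMIs) in the control library. Hepatoma cells had 265 CPM in each library, from 26410 and 25117 UMIs, a log2 ratio of 0.00 (-0.02 to 0.03). Monocytes and macrophages had 214 and 190 CPM, neutrophils 208 and 271 CPM (-0.39, -0.66 to -0.10), and CD8 T cells 106 and 97.7 CPM (0.11, 0.02 to 0.21). Within the myeloid gate the direction differed by subset. Macrophages had 204 against 146 CPM (0.48, 0.20 to 0.77), and monocytes 235 against 309 CPM (-0.40, -0.73 to -0.06).

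Irf8, a factor that interferon-gamma induces in macrophages and that dendritic cell development needs, differed widely between classes. It was at 2408 and 2565 CPM in pDC, 2084 and 2154 CPM in NK cells, and 792 and 802 CPM in cDC. Keeping only the NK cells that also fell in the NK cluster gave 2276 and 2421 CPM. CD8 T cells had 497 CPM in the CD147-LYTACs library and 397 CPM in the control library (0.33, 0.28 to 0.37), far above the 64.9 and 52.0 CPM of CD4 T cells. Hepatoma cells had 136 and 133 CPM, where Cd3e, C1qa and S100a8 stood at 0.245% of their level or less in their own class. Neutrophils had the lowest level of the large classes, 12.2 and 25.4 CPM.

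Within CD8 T cells, Irf8 followed the subsets. Tcf7+ Pdcd1- cells had 169 CPM in the CD147-LYTACs library and 43.4 CPM in the control library, from 119 and 59 UMIs. Tcf7+ Pdcd1+ cells had 263 and 185 CPM, Tcf7- Pdcd1+ Havcr2- cells 487 and 370 CPM, and Tcf7- Pdcd1+ Havcr2+ cells 607 and 502 CPM. Tcf7- Pdcd1- cells had 358 and 339 CPM. The log2 ratio was largest in Tcf7+ Pdcd1- cells, at 1.96 (1.4996 to 2.44), and was 0.27 (0.22 to 0.33) in Tcf7- Pdcd1+ Havcr2+ cells, which held 70.5% and 69.0% of the Irf8 UMIs of CD8 T cells. In Tcf7- Pdcd1- cells it was 0.08 (-0.06 to 0.22). The Tcf7+ Pdcd1- cells numbered 122 and 232, and the share of all genes past 1.5-fold was not computed for CD8 T cell subsets. The part of single cells or of RNA from other cells in the Irf8 difference of Tcf7+ Pdcd1- cells was not tested.

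In monocytes and macrophages Irf8 went the other way, at 254 CPM (773 UMIs) in the CD147-LYTACs library against 403 CPM (534 UMIs) in the control library, with a log2 ratio of -0.67 (-0.83 to -0.50). Macrophages had 312 against 468 CPM (-0.58), just under 1.5-fold, and monocytes 138 against 229 CPM (-0.73). The largest cluster of these cells held 89.98% of them in the CD147-LYTACs library and 75.4% in the control library. Within that cluster alone Irf8 was at 191 against 463 CPM, a log2 ratio of -1.28 (-1.49 to -1.07). With all cells classed by clusters in place of gates it was -0.24 (-0.35 to -0.13), the same direction but under 1.5-fold.

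Socs1, the kinase inhibitor that feeds back on the receptor, was sparse. Hepatoma cells had 40.8 and 40.5 CPM, and CD8 T cells 28.2 CPM (439 UMIs) in the CD147-LYTACs library against 21.5 CPM (435 UMIs) in the control library, with a log2 ratio of 0.39 (0.20 to 0.59). In Tcf7+ Pdcd1- cells it was at 65.3 against 25.7 CPM (46 and 35 UMIs) and in Tcf7- Pdcd1- cells at 31.7 against 18.7 CPM (66 and 52 UMIs). Monocytes and macrophages had 26.9 and 26.4 CPM, and neutrophils 29.4 and 23.3 CPM with an interval of the log2 ratio from -0.56 to 1.38.

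The promoters of Irf1, Irf8 and Socs1 are shown because these are the members that the pathway itself induces. The 250 bases before the most upstream RefSeq start of each are given 5′ to 3′ on the gene's strand, from RefSeq promoter sequences on GRCm38.p6, at chr11:53769764-53770013 (plus strand), chr8:120736108-120736357 (plus strand) and chr16:10785537-10785786 (minus strand). Capitals mark matches on either strand to TTCNNNGAA, the letters of a gamma-activated site, or to GAAANNGAAA, the core of an interferon-stimulated response element.
Irf1: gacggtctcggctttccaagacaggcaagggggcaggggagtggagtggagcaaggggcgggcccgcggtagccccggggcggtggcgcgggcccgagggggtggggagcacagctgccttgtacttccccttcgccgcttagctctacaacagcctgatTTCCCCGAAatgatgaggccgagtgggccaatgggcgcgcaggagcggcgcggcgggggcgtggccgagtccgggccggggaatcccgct
Irf8: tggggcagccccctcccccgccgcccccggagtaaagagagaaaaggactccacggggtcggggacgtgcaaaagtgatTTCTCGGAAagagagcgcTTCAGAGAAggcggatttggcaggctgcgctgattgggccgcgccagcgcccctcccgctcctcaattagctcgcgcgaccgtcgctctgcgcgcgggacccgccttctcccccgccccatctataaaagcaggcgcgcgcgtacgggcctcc
Socs1: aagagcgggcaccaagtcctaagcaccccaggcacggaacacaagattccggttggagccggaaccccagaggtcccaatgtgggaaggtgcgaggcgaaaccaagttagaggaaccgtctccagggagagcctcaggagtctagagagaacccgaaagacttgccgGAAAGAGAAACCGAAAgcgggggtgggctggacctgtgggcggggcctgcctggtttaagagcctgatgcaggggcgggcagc
Irf1 holds a match to TTCNNNGAA 90 bases before its start, Irf8 holds 2 at 171 and 153 bases, and Socs1 holds overlapping matches to GAAANNGAAA at 83 and 77 bases. Irf1 and Irf8 each have a further RefSeq start downstream, whose windows at chr11:53770223-53770472 and chr8:120738389-120738638 hold neither motif. TTCNNNGAA is found in 7.18% of the 27025 promoter windows of this length and GAAANNGAAA in 3.04%. Of the other members, Ifng has a match to TTCNNNGAA at the far end of the window, and the receptor and kinase genes have neither motif in this window. A match is a description of the letters and was not tested as a binding site.

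The members were next counted by a common rule, at least 1.5-fold between the libraries with an interval that excludes no difference and at least 100 UMIs, over the 6 classes with 100 or more cells in each library. Irf8 in monocytes and macrophages, lower in the CD147-LYTACs library, was the single call. There 7 of 8 members had enough UMIs, and 14.2% of the 5337 genes with enough UMIs met the rule, 6.35% higher and 7.83% lower. No member met it in hepatoma cells, where 8 had enough UMIs and 3.8% of 13673 genes met it (1.46% higher, 2.33% lower). None of 7 met it in CD8 T cells, where 3.1% of 10242 genes did (1.95% higher, 1.15% lower). None of 7 met it in CD4 T cells (5.24% of all genes, 1.98% higher, 3.26% lower) or in other T cells (4.21%, 2.31% higher, 1.9% lower). In neutrophils none of 6 met it, against 19.3% of all genes (6.2% higher, 13.1% lower). Over all T and NK cells Ifngr2 met it, higher in the CD147-LYTACs library, where 3.23% of genes did (2.13% higher, 1.1% lower). In cDC Ifngr2 was called lower, at -0.62 (-1.14 to -0.13), where 9.83% of genes were. In monocytes alone Ifngr2 was called higher, at 0.60 (0.09 to 1.14), and Irf8 lower, where 10.4% and 6.97% of genes were. In NK cells none of the 6 members with enough UMIs met it, against 8.1% of genes (2.7% higher, 5.4% lower). A share of members near the share of all genes says nothing of the members as a set. The median log2 ratio over all genes with enough UMIs lay between -0.09 in neutrophils and 0.01 in monocytes and macrophages.

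The producing cell's receptors and factors were listed as 13 genes. In CD8 T cells 11 had enough UMIs and none met the rule, where 3.1% of all genes did. In other T cells 10 had enough UMIs, with Il15ra called higher and Eomes lower, where 2.31% of all genes were called higher and 1.9% lower. In CD4 T cells none of 9 and in NK cells none of 8 met it, where 5.24% and 8.1% of all genes did. Counts of none this near the share of all genes say nothing of the list. In CD8 T cells the median log2 ratio of the listed genes was -0.15, beside -0.03 over all genes. Il12rb2, a chain of the interleukin 12 receptor, was at 204 CPM in the CD147-LYTACs library and 286 CPM in the control library (-0.49, -0.55 to -0.42). Il18r1, of the interleukin 18 receptor, was at 227 and 308 CPM (-0.44), and Stat4, which carries the interleukin 12 signal, at 563 and 699 CPM (-0.31). Runx3, a factor of cytotoxic T cells, was at 346 and 263 CPM (0.40, 0.34 to 0.45). Of the 8 upstream cytokine genes none had enough UMIs in CD8 T cells. Il12b, the shared chain of interleukins 12 and 23, was found mainly in cDC, at 329 CPM (157 UMIs) in the CD147-LYTACs library and 253 CPM (270 UMIs) in the control library.

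Of the 5 further transducers, none met the rule in hepatoma, CD8 T, CD4 T or other T cells or in neutrophils. In that order of classes, 3.8%, 3.1%, 5.24%, 4.21% and 19.3% of all genes met it. In monocytes and macrophages Irf9, a factor of interferon signalling, was the single transducer called higher, where 6.35% of all genes were called higher. It was at 49.6 CPM in the CD147-LYTACs library against 28.7 CPM in the control library (0.79, 0.27 to 1.34). The list as a whole did not rise there: the median log2 ratio of the 5 transducers was -0.29, beside 0.01 over all genes. Of the 9 negative regulators, all had enough UMIs in CD8 T cells. Socs2 and Socs3, which restrain cytokine signalling, were called higher there and none lower, beside 1.95% of all genes called higher. Socs2 was also the single negative regulator called in hepatoma cells and in other T cells, higher in both, where 1.46% and 2.31% of all genes were. Its level was low, at 3.44 against 2.04 CPM in hepatoma cells (342 and 193 UMIs). In other T cells it was at 25.9 against 11.6 CPM (65 and 36 UMIs). No negative regulator met the rule in CD4 T and NK cells, of 8 and 5 with enough UMIs, where 5.24% and 8.1% of all genes did. Ptpn1, a tyrosine phosphatase, was called lower in monocytes and macrophages, at 215 against 364 CPM (-0.76). It was also called lower in neutrophils, at 233 against 398 CPM (-0.78), where Ptpn6 and Ptpn11 were called lower too. Of all genes, 7.83% were called lower in monocytes and macrophages and 13.1% in neutrophils.

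The 31 listed genes that interferon-gamma induces differed most by cell class. In monocytes and macrophages 29 had enough UMIs, of which 16 were at least 1.5-fold lower in the CD147-LYTACs library and 2 higher, with a median log2 ratio of -0.60 beside 0.01 over all genes, and 7.83% of all genes were called lower there. Cxcl9, a chemokine that attracts T cells, was at 281 CPM against 934 CPM (-1.73, -1.86 to -1.61). Ciita, the master regulator of MHC class II genes, was at 30.2 against 92.8 CPM (-1.62), Iigp1 at 75.5 against 187 CPM (-1.31) and Gbp4 at 80.8 against 196 CPM (-1.28), both of them interferon-induced GTPases. Those called higher were Irf7 and Fcgr1, and Fcgr1 is also among the markers of the gate. Cd274, the gene of the checkpoint ligand PD-L1, was at 840 against 1029 CPM (-0.29) and did not meet the rule, and is named after its values were seen.

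Markers in the same gate differed too. The neutrophil gene S100a8 was at 89.99 against 19.6 CPM, and the gate's own C1qa at 846 against 1289 CPM and Csf1r at 210 against 293 CPM, and their part in the result was not tested. The mixture of the gate also differed between the libraries, with 281 macrophages and 198 monocytes in the CD147-LYTACs library against 118 and 49 in the control library. In macrophages alone 13 of 28 induced genes were called lower and none higher, where 18% of all genes met the rule (7.73% higher, 10.3% lower). In monocytes alone 13 of 24 were called lower and 2 higher, where 17.4% of all genes did (10.4% higher, 6.97% lower). The gated cells of the largest cluster alone gave 17 called lower, for which the share of all genes was not computed. In neutrophils 14 of 25 were called lower and 1 higher, Iigp1, with a median of -0.67 beside -0.09 over all genes, and 13.1% of all genes were called lower. Gbp4 was at 24.1 against 127 CPM there (-2.40), Psmb9, of the immunoproteasome, at 44.998 against 117 CPM (-1.37), Gbp5 at 66.2 against 167 CPM (-1.34) and Cxcl10, a chemokine related to Cxcl9, at 79.7 against 163 CPM (-1.03). The gate's own markers were lower as well, with S100a8 at 13238 against 20455 CPM and Csf3r at 382 against 583 CPM, and the part of this in the result was not tested. The control values of neutrophils rest on 137 cells and 472062 UMIs. In cDC 5 of 22 were called lower, Cxcl9, Cxcl10, Gbp4, Gbp5 and Iigp1, and Ccl5 higher, from 43 and 68 cells, where 18.1% of all genes met the rule (8.26% higher, 9.83% lower).

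In hepatoma cells none of the 29 induced genes with enough UMIs met the rule, where 3.8% of all genes did (1.46% higher, 2.33% lower). The median log2 ratio of these induced genes was 0.02, beside -0.02 over all genes. Cxcl9 was at 76.4 CPM in the CD147-LYTACs library and 63.9 CPM in the control library (0.26, 0.21 to 0.31), Gbp4 at 49.6 and 57.4 CPM (-0.21), Gbp7 at 106 and 121 CPM (-0.19) and Nlrc5, the regulator of MHC class I genes, at 82.2 and 92.1 CPM (-0.16). In CD8 T cells 26 had enough UMIs and 3 were called higher, H2-Ab1, H2-Aa and Cd74, all of MHC class II, with none lower. H2-Ab1 stood at 71.5 and 23.1 CPM there, and C1qa in the same cells at 2.83 and 1.53 CPM. NK cells had 2 called higher, H2-Aa at 177 and 37.9 CPM and Cd74 at 362 and 83.7 CPM, of 9 with enough UMIs. In CD4 T cells the MHC class II genes went the other way, with H2-Ab1 at 17.3 and 73.2 CPM, so that H2-Ab1, H2-Aa and Cd74 were called lower and Ccl5 higher among 19. Other T cells had Cxcl10 called lower among 24. Of all genes, 1.95% were called higher in CD8 T cells and 2.7% in NK cells. Called lower were 3.26% in CD4 T cells and 1.9% in other T cells. The part of RNA from other cells in these MHC class II genes was not tested.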

How the data were processed

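Single cells from Hepa1-6 tumours were profiled with 10x Genomics Chromium libraries on an Illumina NextSeq, per the labels' protocols, with 1 CD147-LYTACs library and 1 control library. The authors deposited raw UMI counts per gene and barcode, with no normalization. The submitters' processing notes name Cell Ranger 3.0.2 and mm10, while the matrix header names cellranger 7.1.0, and no label or header names a gene annotation release. The 8 members and the gene lists were chosen with earlier results of these data known.

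Barcodes were kept from 500 UMIs and 300 detected genes upward, where mitochondrial UMIs did not exceed 15%, 8176 in the CD147-LYTACs library and 7091 in the control library. Scrublet (scanpy 1.11.5) scores ranked doublets, and the highest 0.8% per 1000 barcodes were removed, 535 and 402. Its automatic threshold marked 134 and 1 and was not used. Cells were classed by gates on marker UMIs, whose thresholds and choice of markers were set after seeing the data, and cells meeting several gates or none were left out. Fcgr1 is both a gate marker and a listed induced gene. The alternative classing took Leiden clusters, each named by the majority of its gated cells.

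UMIs were summed per class and library and given as CPM with exact Poisson intervals, shares with exact Clopper-Pearson intervals, and log2 ratios, CD147-LYTACs over control, with conditional binomial intervals, all at 95% and for counting error only. A count of 0 was read as allowing 3. With 1 library per group no test was made, and no p-value is given. Ratios were checked on simulated Poisson counts of class sums, which hold no spread between cells. Of the listed genes, those named were the 4 with the largest log2 ratio in size among those at 50 CPM or more, and any genes making up a count of 5 or fewer, the latter chosen after their values were seen. Cxcl11 had no matching symbol. Of 32285 gene IDs, 99.6% matched the GRCm38 annotation used for positions. Results for some genes of the lists and of the likeness ranking are not reported here.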

Additional observations from a re-analysis of the deposited data

Results flagged for a closer look

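The Irf8 log2 ratio, CD147-LYTACs over control, had opposite signs in different cell classes, with intervals that excluded no difference. It was 0.33 in CD8 T cells and 0.32 in other T cells, against -0.67 in monocytes and macrophages. With 1 library per group the difference between these classes was not tested. In the monocyte and macrophage gate, the share of cells in the largest cluster also differed, at 89.98% in the CD147-LYTACs library and 75.4% in the control library, and its part in the Irf8 difference was not tested. Within that cluster alone the log2 ratio was -1.28.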

How the results depend on the processing

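The Ifng log2 ratio stayed positive under every alternative run, from 0.30 to 0.37 over all T and NK cells and from 0.36 to 0.40 in CD8 T cells. In NK cells it lay between -0.19 with stricter gates and 0.23 without the top cell of each library, and each interval computed included no difference (the mean over cells, 0.12, has none). With cells classed by clusters, the share of Ifng UMIs in T and NK cells was 89.2% in the CD147-LYTACs library and 95.7% in the control library. Members past 1.5-fold numbered 1 with the stricter barcode filter and with TMM scaling. There were 2 with no doublet removal, which added Ifngr2 in CD8 T cells, and 2 with stricter gates, which added Ifng in other T cells. Classing by clusters also gave 2, Ifng in hepatoma cells and Irf8 in CD4 T cells, without Irf8 in monocytes and macrophages. A minimum of 20 UMIs gave 3, adding Ifngr2 in CD8 T cells and Irf8 in neutrophils. The share of all genes meeting the rule was not computed under these alternatives, so the counts of members have no background there. The Ifng ratio in other T cells turned to -1.34 by clusters and was 0.26 with no doublet removal, and in CD4 T cells it ranged from -0.56 with the stricter barcode filter to 0.42 by clusters. The cause of these shifts was not tested. The ratio of Jak2 in T and NK cells stayed between -0.41 and -0.36. Irf8 in monocytes and macrophages stayed lower, from -1.28 to -0.24. Induced genes called lower numbered 13 to 17 in monocytes and macrophages and 12 to 16 in neutrophils. Apart from the macrophage and monocyte gates, the share of all genes was not computed for these alternatives. No paired analysis was possible because each group has 1 library, which also left no replicate to leave out. Depth limits Ifngr2 in T and NK cells (96 and 70 UMIs) and Socs1 outside hepatoma and CD8 T cells.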
